A study of Mus musculus with 4 samples.

Results

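The genes *Il6st*, *Il6ra*, *Osm*, *Il11* and *Il27*, which encode receptor chains and cytokines of the interleukin 6 family, were followed in ischemic mouse hindlimb muscle after E-selectin gene therapy. They were chosen by symbol, and are 5 of the 84 target genes on an RT-qPCR array for inflammatory cytokines and receptors. FVB mice received intramuscular AAV2/2, an adeno-associated virus vector, carrying either E-selectin (named E-sel/AAV2/2) or, as control, the bacterial reporter LacZ (named LacZ/AAV2/2). In both groups the artery and vein of the thigh (femoral) were then closed by cautery and divided, and the mice received L-NAME, which blocks nitric oxide synthesis, at 40 mg/kg, and the adductor and gastrocnemius muscles of the ischemic limb were taken at day 21. Per the study's methods the mice were adult males and females, and the sex of the animals on these arrays is not given in the sources used here. The promoter that drove the transgene is likewise not given. RNA of 3 mice was pooled per group, and each group has 2 arrays, labelled replicates 1 and 2. The 2 arrays of a group were therefore read as repeat runs of 1 pool. On that reading, every SD, interval and p-value below carries the error of the assay and not the spread between animals. The reading itself was not tested. No gene that defines muscle fibers or endothelium is among those analysed here, so the labelled tissue could not be checked against its markers.

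Cytokines of the interleukin 6 family signal through receptor complexes that share gp130, the product of *Il6st*. Binding brings gp130 chains together, the JAK kinases attached to them become active, and STAT3 carries the signal to the nucleus. In skeletal muscle the family is known for its part in satellite cell activity, fiber regeneration and wasting, and interleukin 6 is also released by contracting muscle. The gene for interleukin 6 itself is not among those analysed here, and neither are the other receptor chains of the family.

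Each well gave a threshold cycle (Ct), at which its PCR fluorescence crosses a set level. A later Ct means less transcript, and 1 cycle stands for a 2-fold difference at full PCR efficiency. Values are given as -ΔCt, the mean Ct of 5 reference genes (*Gapdh*, *Actb*, *Gusb*, *Hsp90ab1* and *B2m*) on an array minus the Ct of the gene, so that a higher value means more transcript relative to these reference genes and a difference of -ΔCt is a log2 fold change. The reference genes averaged a Ct between 23.8 and 25.2 on the 4 arrays. The wells that control for the PCR step averaged a Ct of 21.00 to 21.19. Over the 77 target genes read on every array, the median gap in -ΔCt between repeat arrays was 0.76 with E-sel/AAV2/2. With LacZ/AAV2/2 it was 1.12. LacZ/AAV2/2 replicate 1 stood apart from the other arrays, with a median Ct over the tested genes of 34.1 against 31.9 to 32.6, and with 46 target genes under Ct 35 against 64 or 65. LacZ/AAV2/2 replicate 2 stood apart in the wells that control for reverse transcription. These averaged a Ct of 24.72 on it, against 23.11 to 23.55 on the other arrays. Relative to the mean of all 5 reference genes, *B2m* was 1.44 higher and *Gapdh* 1.11 lower (a difference of -1.11) on the log2 scale with E-sel/AAV2/2, so that the choice of reference moves every -ΔCt below.

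No difference between the pools beyond the error of the assay was detected for *Il6st*, *Il6ra*, *Osm* or *Il27*, the 4 members read on every array. In limma with Benjamini-Hochberg adjustment over the 77 target genes read on every array, 0 of these 4 genes were called at an adjusted p-value under 0.05, and 0 had an unadjusted p-value under 0.05. Of the 77 genes tested, 5.19% were called, all of them higher with E-sel/AAV2/2. In limma fits that left out 1 array, 0 genes of the panel were called without E-sel/AAV2/2 replicate 1, without E-sel/AAV2/2 replicate 2 or without LacZ/AAV2/2 replicate 1 (8, 7 and 15 at an unadjusted p-value under 0.05), and 5 were called without LacZ/AAV2/2 replicate 2. The log2 fold change of E-sel/AAV2/2 over LacZ/AAV2/2 was below zero for both receptor chains and *Il27* and above zero for *Osm*. The median of the 4 was -0.84 on the log2 scale, beside -0.19 for all 77 genes.

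**Figure D1:**
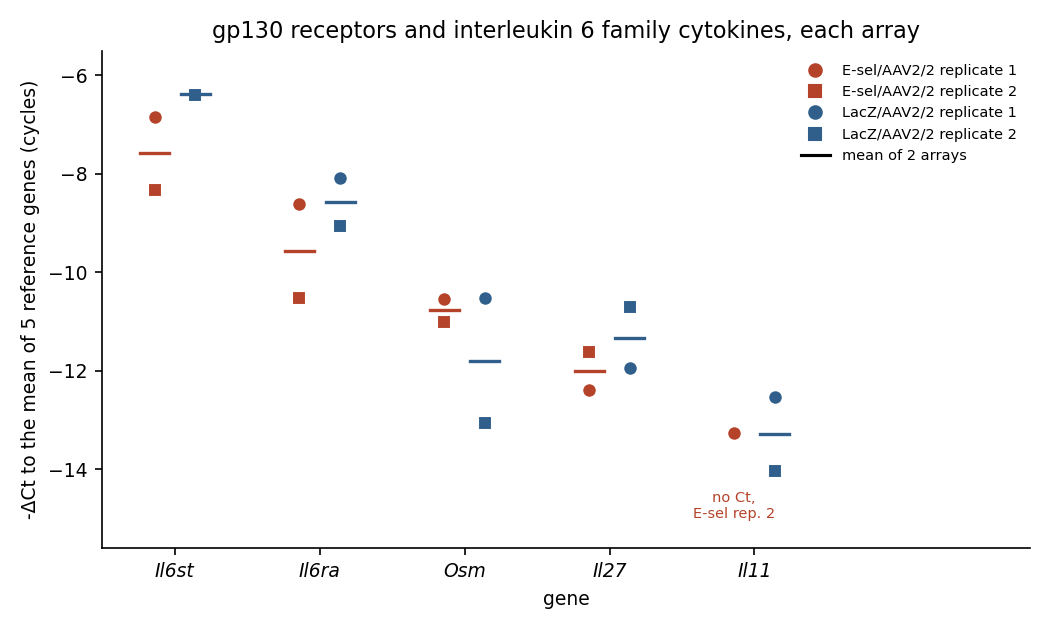
Value of -ΔCt (cycles, relative to the mean of 5 reference genes) of each gene on each array, with circles for replicate 1, squares for replicate 2 and a line at the mean of 2 arrays. The LacZ/AAV2/2 arrays for *Il6st* lie on top of each other at -6.37 and -6.40, those for *Osm* lie at -10.52 and -13.07, and *Il11* gave no Ct on E-sel/AAV2/2 replicate 2.

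*Il6st*, assayed in well F08, encodes gp130, the signal-transducing chain common to the family. In the order of replicates 1 and 2, its Ct was 31.19 and 32.16 with E-sel/AAV2/2 and 31.62 and 30.42 with LacZ/AAV2/2, and values of a pair are given in this order throughout. After normalization -ΔCt was -6.85 and -8.32 with E-sel/AAV2/2 and -6.37 and -6.40 with LacZ/AAV2/2. Both E-sel/AAV2/2 arrays thus lay below both LacZ/AAV2/2 arrays, by a margin that was narrow for replicate 1 and wide for replicate 2. The same held for 20 of the 77 genes, 26.0% of the panel, so that 1 of 4 genes here is a share near the background. The log2 fold change of *Il6st* was -1.20 (SE 0.98, limma adjusted p = 0.507), and its 95% confidence interval ran from -3.32 to 0.91. In fold units the level with E-sel/AAV2/2 was 0.434 times that with LacZ/AAV2/2, with an interval from 0.100 to 1.88. In bulk RNA, fewer cells of a type and less RNA per cell cannot be told apart.

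The repeat arrays behaved differently for *Il6st* in the 2 groups. The LacZ/AAV2/2 arrays were 0.02 apart in -ΔCt, and 74 of the 77 genes had a larger gap between these arrays. The E-sel/AAV2/2 arrays were 1.47 apart, where the median gap over the panel was 0.76 and 17 genes had a larger one. The agreement of *Il6st* on the LacZ/AAV2/2 arrays arose after normalization, since the Ct values themselves differed by about as much as the reference genes did.

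*Il6ra*, assayed in well F07, encodes the chain that binds interleukin 6 and then joins gp130. Its Ct was 32.95 and 34.37 with E-sel/AAV2/2 and 33.34 and 33.08 with LacZ/AAV2/2. Values of -ΔCt were -8.61 and -10.53 with E-sel/AAV2/2 and -8.09 and -9.06 with LacZ/AAV2/2. The groups overlapped, because E-sel/AAV2/2 replicate 1 lay between the LacZ/AAV2/2 arrays. For *Il6ra* the difference was -0.998 on the log2 scale (SE 1.03, adjusted p = 0.654 in limma), with a 95% confidence interval from -3.21 to 1.22. Without E-sel/AAV2/2 replicate 2, the lowest of the 4 arrays, the log2 fold change of *Il6ra* was -0.04 and that of *Il6st* was -0.47. With E-sel/AAV2/2 replicate 1 left out they were -1.96 and -1.94, so that the size of both differences followed E-sel/AAV2/2 replicate 2.

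*Osm*, assayed in well G02, encodes oncostatin M, a cytokine made mainly by activated macrophages, neutrophils and T cells that signals through gp130 paired with its own receptor chain. Its Ct was 34.88 and 34.85 with E-sel/AAV2/2 and 35.77 and 37.09 with LacZ/AAV2/2, so that it came up before cycle 35 on both E-sel/AAV2/2 arrays and after it on both LacZ/AAV2/2 arrays. After normalization the values were -10.54 and -11.01 with E-sel/AAV2/2 and -10.52 and -13.07 with LacZ/AAV2/2. LacZ/AAV2/2 replicate 1 lay level with the E-sel/AAV2/2 arrays, and LacZ/AAV2/2 replicate 2 lay far below them. For *Osm* the difference was 1.02 on the log2 scale (SE 1.07, adjusted p = 0.654 in limma), or 2.02-fold with a 95% confidence interval from 0.413 to 9.92.

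The direction for *Osm* rested on 1 well. Without LacZ/AAV2/2 replicate 2 its log2 fold change was -0.26, and without LacZ/AAV2/2 replicate 1 it was 2.29 (unadjusted p = 0.045 and adjusted p = 0.249 in limma). Only 4 of the 77 genes had a larger gap between the LacZ/AAV2/2 arrays than the 2.54 of *Osm*. A further fit set every Ct above 35 to 35, which takes away the order among late wells. The log2 fold change of *Osm* was then -0.41 (SE 0.90, limma adjusted p = 0.797). Its sign came from the reference genes, since both LacZ/AAV2/2 wells then stood at 35, still after the E-sel/AAV2/2 wells at 34.88 and 34.85. The panel median in this fit was -0.55, and *Osm* stood 0.135 above it.

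*Il27*, assayed in well E11, encodes the p28 subunit of interleukin 27, a cytokine of antigen-presenting cells that signals through gp130 and a second chain and acts largely on T cells. Its Ct was 36.72 and 35.47 with E-sel/AAV2/2 and 37.2 and 34.73 with LacZ/AAV2/2, past cycle 35 on 3 of the 4 arrays. Values of -ΔCt were -12.38 and -11.63 with E-sel/AAV2/2 and -11.95 and -10.71 with LacZ/AAV2/2, and the groups overlapped. For *Il27* the difference was -0.68 on the log2 scale (SE 0.98, adjusted p = 0.716 in limma), with a 95% confidence interval from -2.79 to 1.44.

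*Il11*, assayed in well D11, encodes interleukin 11, a gp130 cytokine made by stromal cells and known from studies of fibrosis. It was the dimmest of the 5 genes and lacked a Ct on E-sel/AAV2/2 replicate 2, so it was not tested over the 4 arrays. It entered the limma fit that left out that array, in which 0 of the 5 genes were called. The other wells gave a Ct of 37.61 on the remaining E-sel/AAV2/2 array and of 37.79 and 38.07 on replicates 1 and 2 of LacZ/AAV2/2. The corresponding -ΔCt was -13.27, -12.54 and -14.05, so that the E-sel/AAV2/2 well with a Ct lay between the LacZ/AAV2/2 wells. At this level a well without a Ct and a well with a late Ct cannot be told apart with any precision, and no fold change is given.

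*Il11* and *Il27* were read close to the well that detects genomic DNA. That control well came up at Ct 37.33 and 36.13 with E-sel/AAV2/2 and at 36.86 and 39.33 with LacZ/AAV2/2. *Il11* came up 0.28 cycles after it on E-sel/AAV2/2 replicate 1, 0.93 cycles after it on LacZ/AAV2/2 replicate 1 and 1.26 cycles before it (a difference of -1.26) on LacZ/AAV2/2 replicate 2. *Il27* came up 0.34 cycles after it on LacZ/AAV2/2 replicate 1 and at most 0.66 cycles before it on the E-sel/AAV2/2 arrays (differences of -0.61 and -0.66), but 4.6 cycles before it (a difference of -4.6) on LacZ/AAV2/2 replicate 2. *Osm* came up before the control well on all 4 arrays, with differences from -1.09 to -2.45 cycles. On each array *Il6st* and *Il6ra* did so by wider margins than *Osm*. For *Il6ra* the difference was only -1.76 cycles on E-sel/AAV2/2 replicate 2. The part of genomic DNA in these wells was not tested.

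By -ΔCt the order was *Il6st*, *Il6ra*, *Osm*, *Il27* on 3 of the 4 arrays, while for LacZ/AAV2/2 replicate 2 *Il27* stood above *Osm*. The order is one of wells, since assays can differ in efficiency and amplicon, and it is no measure of molecules per cell. *Il6st* exceeded *Il6ra* by 1.99 ± 0.318 (SD, n = 2) with E-sel/AAV2/2 and by 2.19 ± 0.665 (SD, n = 2) with LacZ/AAV2/2. *Osm* minus *Il27* was 1.84 and 0.62 with E-sel/AAV2/2, a mean of 1.23 ± 0.863 (SD, n = 2). With LacZ/AAV2/2 it was 1.43 and -2.36, a mean of -0.47 ± 2.68 (SD, n = 2), which is within the spread.

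**Figure D2:**
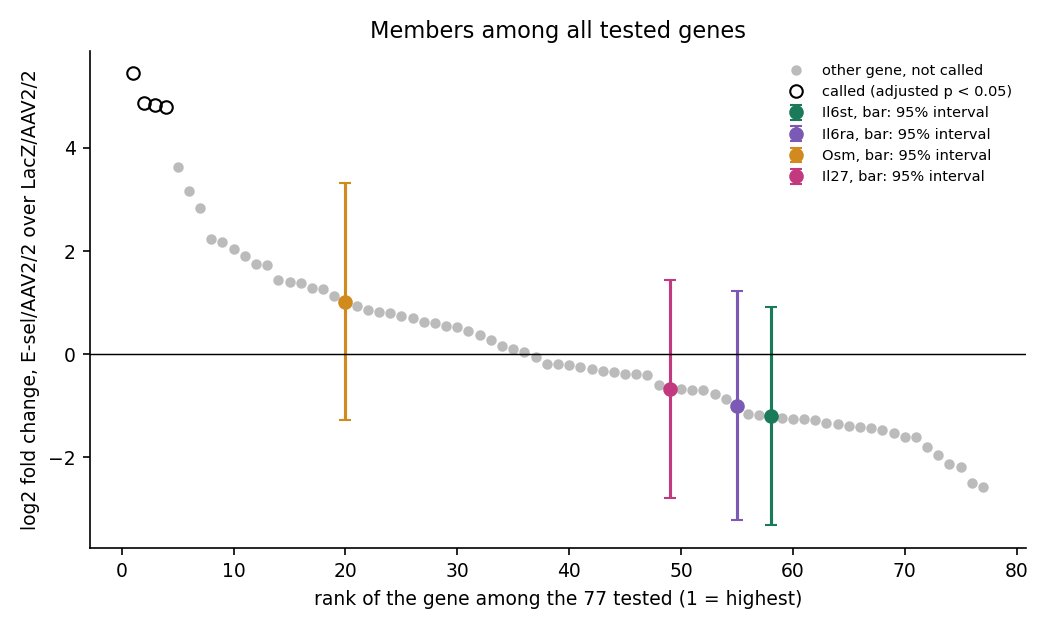
Log2 fold change of E-sel/AAV2/2 over LacZ/AAV2/2 (y axis) for the 77 tested genes in order of rank (x axis), with the 95% confidence interval for the 4 tested members of the family and open circles for the 4 genes called. *Osm* ranks 20 of 77 and *Il27*, *Il6ra* and *Il6st* rank 49, 55 and 58, all within the run of genes that were not called and with intervals that include zero.

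Counted from the highest log2 fold change, *Osm* ranked 20 of 77, *Il27* ranked 49, *Il6ra* ranked 55 and *Il6st* ranked 58. The interval of *Osm*, the widest of the 4, reached from -1.28 to 3.31, so that with these arrays a difference of several fold could have been missed.

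To compare the genes without any reference gene, the Ct of *Il6ra*, *Osm* or *Il27* was subtracted from the Ct of *Il6st* on the same array. A higher value of this difference means more of the second gene relative to *Il6st*. Such differences were compared by exact permutation (two-sided), which with 2 arrays per group reaches p = 0.333 at the lowest, and 3 of them were tested, so none could be called.

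*Il6ra* kept nearly the same distance from *Il6st* in both pools. The difference was -1.76 and -2.21 with E-sel/AAV2/2 and -1.72 and -2.66 with LacZ/AAV2/2. The pools differed by 0.21 on the log2 scale (exact permutation p = 1, adjusted p = 1), which is less than the spread between repeat arrays. It changed sign to -0.02 without E-sel/AAV2/2 replicate 1 and to -0.27 without LacZ/AAV2/2 replicate 2.

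For *Osm* the difference from *Il6st* was -3.69 and -2.69 with E-sel/AAV2/2 and -4.15 and -6.67 with LacZ/AAV2/2. The pools did not overlap and differed by 2.22 on the log2 scale (exact permutation p = 0.333, the smallest possible, adjusted p = 1). Of the 76 other genes tested, *Osm* included, 34 stood higher against *Il6st* without overlap in the same way, or 44.7%, and 2.63% stood lower without overlap, so that *Osm* is one of many. Leaving out each array in turn gave 0.96 to 3.48, the lowest without LacZ/AAV2/2 replicate 2, and setting each Ct above 35 to 35 gave 0.79, with overlap, since LacZ/AAV2/2 replicate 1 then stood at -3.38 and above E-sel/AAV2/2 replicate 1.

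*Il27* showed no separation from *Il6st*. The difference was -5.53 and -3.31 with E-sel/AAV2/2 and -5.58 and -4.31 with LacZ/AAV2/2, and replicate 2 was the higher array in both pools. The pools differed by 0.53 on the log2 scale (exact permutation p = 0.667, adjusted p = 1). It changed sign to -0.59 without E-sel/AAV2/2 replicate 2 and to -0.11 without LacZ/AAV2/2 replicate 1.

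**Figure D3:**
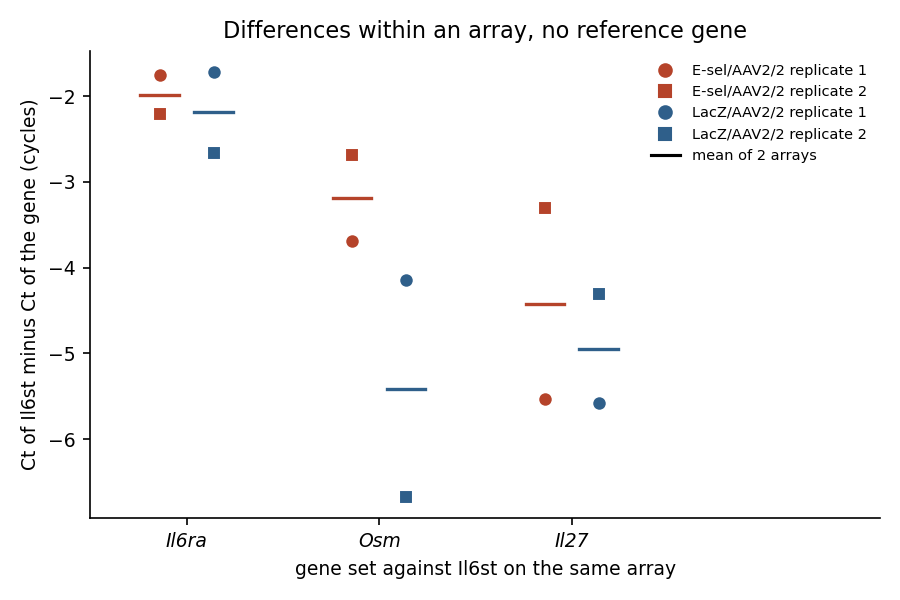
Ct of *Il6st* minus the Ct of *Il6ra*, *Osm* or *Il27* on the same array (y axis, cycles), with circles for replicate 1, squares for replicate 2 and a line at the mean of 2 arrays. The groups overlap for *Il6ra* and *Il27*, and for *Osm* the E-sel/AAV2/2 arrays at -3.69 and -2.69 lie above the LacZ/AAV2/2 arrays at -4.15 and -6.67.

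The level relative to the reference genes shifted with the reference used, by the same amount for every gene. With *Gapdh* as the only reference the panel median moved by 1.11 on the log2 scale, and the log2 fold changes became -0.09 for *Il6st*, 0.12 for *Il6ra*, 0.44 for *Il27* and 2.13 for *Osm*. With *B2m* as the only reference the panel median moved by -1.44, and they became -2.65 for *Il6st*, -2.44 for *Il6ra*, -2.12 for *Il27* and -0.43 for *Osm*. *Il6st* had its lowest unadjusted p-value here, 0.039, with a limma adjusted p of 0.123. Relative to the panel median, *Il6st* was -1.01, *Il6ra* -0.81, *Il27* -0.49 and *Osm* 1.21 on the log2 scale under each of these references.

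**Figure D4:**
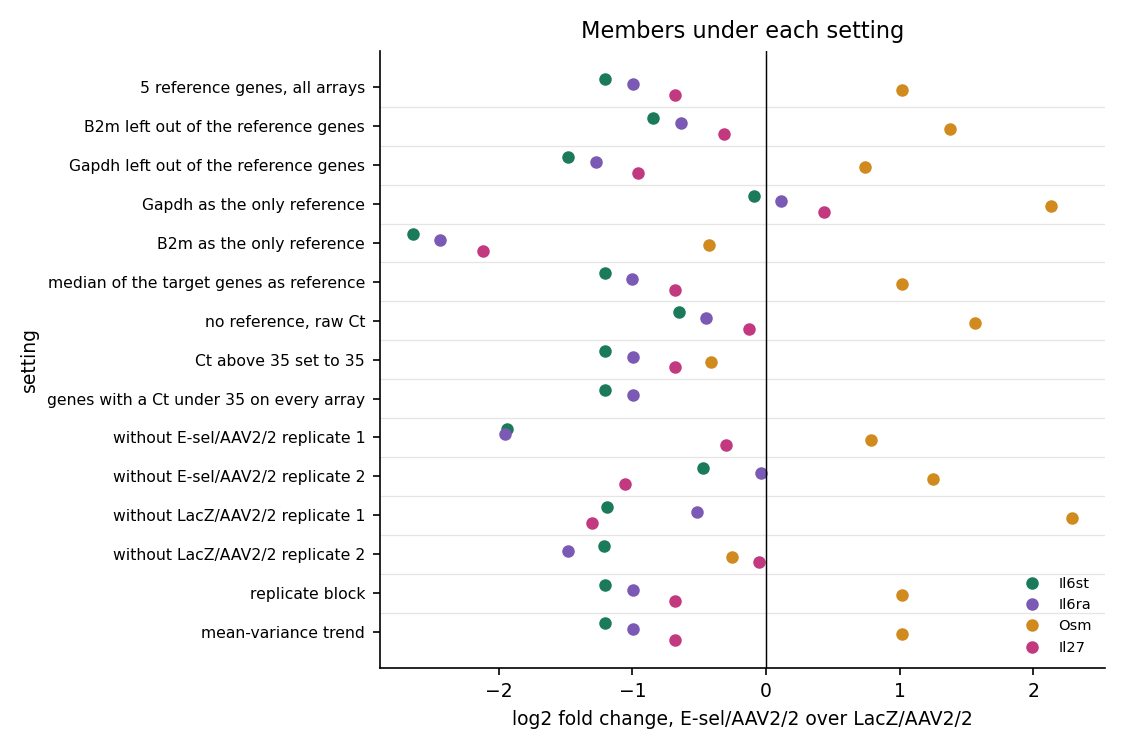
Log2 fold change of E-sel/AAV2/2 over LacZ/AAV2/2 (x axis) for *Il6st*, *Il6ra*, *Osm* and *Il27* under each setting (y axis, first line as reported). Only *Il6st* stays below zero throughout, from -2.65 to -0.09, while *Osm* runs from -0.43 to 2.29. *Osm* and *Il27* have no point where a Ct under 35 was required on every array.

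The genes with the most similar profile over the 4 arrays were found as those with the smallest root mean square difference of centered -ΔCt, in which the reference cancels. A lag of an array that is common to all genes cancels as well. Each profile has only 4 points and the nearest were picked from all other tested genes, so the values are a description. For *Il6st* the nearest were *Il15*, a lymphocyte growth cytokine, at 0.20, *Il1rn*, the interleukin 1 receptor antagonist, at 0.27 and *Il6ra* at 0.38, where the median over all other genes was 1.06. For *Il6ra* they were *Il10ra*, a chain of the interleukin 10 receptor, at 0.19, *Il6st* at 0.38 and *Il1rn* at 0.40, against a median of 1.26. The receptor chains *Il6st* and *Il6ra* were thus among the 3 nearest genes of each other.

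Neither *Osm* nor *Il27* had a receptor chain of the family among its 3 nearest genes. For *Osm* the nearest were the death ligand *Tnfsf10* at 0.86, the lymphocyte growth cytokine *Il7* at 0.89 and the vascular growth factor *Vegfa* at 0.90, against a median of 1.62, and *Il6ra* and *Il6st* came in places 20 and 32. *Il27* was nearest to the monocyte chemoattractant *Ccl2* at 0.17, the chemokine *Ccl9* at 0.29 and the enzyme and adipokine *Nampt* at 0.29, against a median of 0.87, with *Il6st* in place 42.

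Among 6 genes that cytokines of this family are known to induce, 0 were called in either direction by limma, and 1 had an unadjusted p-value under 0.05. Their median log2 fold change was 0.10, beside -0.19 for all 77 genes, with 3 above and 3 below zero. *Tnfsf11*, the gene for RANKL, which gp130 cytokines induce in stromal cells, had the widest difference at 2.83 (SE 1.10, limma adjusted p = 0.239). The interferon-inducible chemokines *Cxcl9* and *Cxcl10*, which interleukin 27 can induce, stood at 2.18 (SE 1.20, limma adjusted p = 0.396) and 0.54 (SE 1.02, limma adjusted p = 0.799). The LacZ/AAV2/2 arrays of *Cxcl9* lay far apart, at Ct 37.18 and 32.2, and its groups overlapped after normalization. *Il1rn*, which interleukin 6 induces in hepatocytes, stood at -1.17 (SE 0.96, limma adjusted p = 0.507), *Ccl2* at -0.70 and *Vegfa* at -0.35. The arrays of *Tnfsf11* did not overlap, with E-sel/AAV2/2 higher, as for 22.1% of the panel. Its LacZ/AAV2/2 arrays also lay far apart, at Ct 34.59 and 36.26, or -10.79 ± 2.05 in -ΔCt (SD, n = 2). The arrays of *Il1rn* did not overlap either, with E-sel/AAV2/2 lower, as for 26.0% of the panel.

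The 6 other cytokine receptor chains on the panel did not move as a block either, and 0 were called by limma, with 0 at an unadjusted p-value under 0.05. *Il2rb* and *Il2rg*, the chains shared by receptors for interleukins 2 and 15, stood at 2.23 (SE 1.12) and 1.43 (SE 0.99) on the log2 scale. For both, the arrays did not overlap, with E-sel/AAV2/2 higher, as for 22.1% of the panel. *Il5ra* stood at 0.37, but came up past cycle 35 on all 4 arrays. *Il10ra*, *Il10rb* and *Il1r1* stood at -1.35, -0.78 and -0.29, on the same side of zero as *Il6st* and *Il6ra*. Of the 77 genes tested, these included, 41 lay below zero. The median of the 6 was 0.04.

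**Figure D5:**
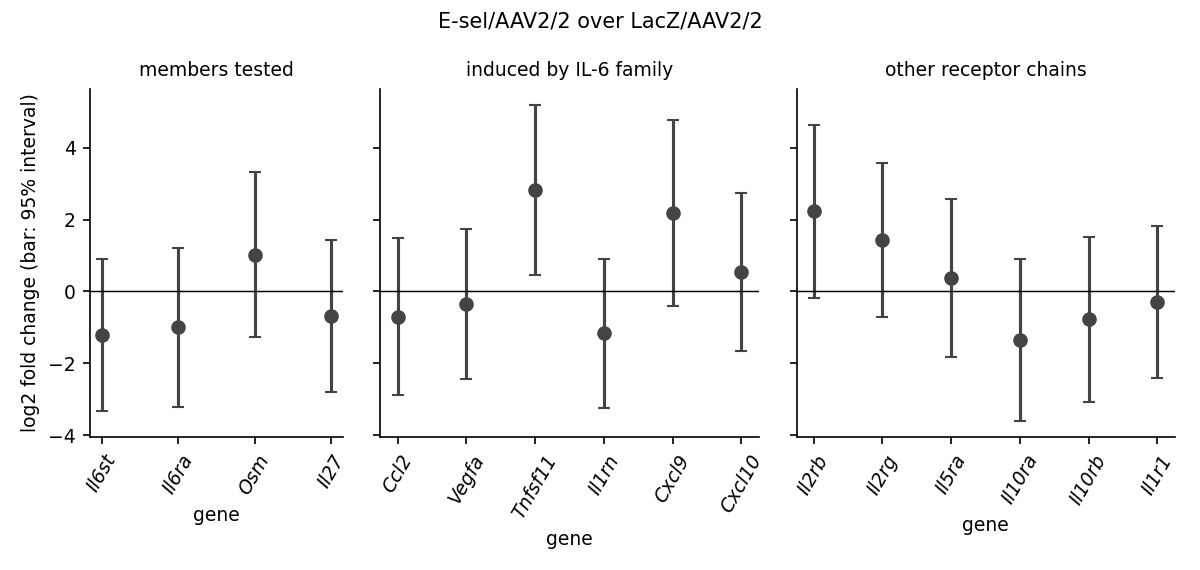
Log2 fold change of E-sel/AAV2/2 over LacZ/AAV2/2 with its 95% confidence interval (y axis) for the 4 tested members, 6 genes that the family is known to induce and 6 other cytokine receptor chains (x axis). All intervals include zero except that of *Tnfsf11*, which runs from 0.46 to 5.19 and did not pass the adjusted threshold.

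Markers of lymphocytes were read on the same arrays. Of 7 lymphocyte genes (*Il2rb*, *Cd40lg*, *Fasl*, *Ifng*, *Cxcr3*, *Ccr6* and *Cxcr5*), 7 had a log2 fold change above zero, with a median of 2.23, beside 36 of 77 genes and a median of -0.19 for the panel. For *Fasl*, *Ifng* and *Cxcr3* it was 0.81, 0.85 and 0.75. These values are smaller than the shift of -1.44 with *B2m* as the only reference, so these genes fall below zero there. *Fasl* and *Cxcr3* also fell below zero without LacZ/AAV2/2 replicate 1. In limma 2 of the 7 were called higher, where 5.19% of the panel was called, *Ccr6* at 4.84 (adjusted p = 0.00624) and *Cxcr5* at 5.45 (adjusted p = 0.00624). Both calls were among those lost without either E-sel/AAV2/2 array, without LacZ/AAV2/2 replicate 1 or when *B2m* alone was the reference. In that last setting limma called 0 genes of the panel, and 26 had an unadjusted p-value under 0.05. The summed level of the list, in units of the reference genes, was 0.0738 and 0.0816 with E-sel/AAV2/2 and 0.00492 and 0.0124 with LacZ/AAV2/2. Such a sum weighs genes with an early Ct most. *Ccr6*, at Ct 28.89 and 27.79, made up most of it on the E-sel/AAV2/2 arrays. All of these markers gave a Ct on all 4 arrays, but *Cd40lg*, *Fasl* and *Ifng* came up past cycle 35 on all 4. *Il2rb* did so on 2 arrays and *Cxcr5* on 1. The part of these markers in the values of *Osm* and *Il27* was not tested.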

How the data were processed

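RNA of ischemic muscle, pooled from 3 mice per group, was profiled by SYBR Green RT-qPCR on 4 arrays of 96 wells, 2 per group. The authors deposited Ct values per well without normalization, with wells that gave no Ct marked. They also deposited fold ratios of E-sel/AAV2/2 over LacZ/AAV2/2 by replicate number, which were not used beyond the symbol of each well. Baseline and threshold settings are not given in the sources used here. All 89 gene symbols matched RefSeq (GRCm38.p6). No primer sequences were used, and no coordinates are printed, as no build is named in the files.

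As in the study's methods, ΔCt was taken to the mean of 5 reference genes, and -ΔCt was tested two-sided with the lmFit and eBayes functions of limma 3.58.1 (R 4.3.3), without covariates. Benjamini-Hochberg adjustment ran over the 77 of 84 target genes read on all 4 arrays, and calls were made where the adjusted p-value was under 0.05. The 7 other genes, *Il11* among them, were left out of this test. Late Ct values were kept, and full PCR efficiency was assumed. Within-array differences were compared by exact permutation in scipy 1.17.1, and figures drawn with matplotlib 3.10.9. With few arrays, their number limits the precision.

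The 5 genes and the lists (induced genes, receptor chains and lymphocyte markers, and 1 further marker list that is not reported here) were chosen with earlier results of these data known. Genes to be named were the 5 members, the genes of the induced list, the 3 genes of nearest profile to each member and reference genes, and values of other receptor chains and of *Ccr6* and *Cxcr5* were added after they were seen. Other settings were the reference genes, the treatment of Ct above 35, leaving out each array, a block for the replicate number and a mean-variance trend.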

Additional observations from a re-analysis of the deposited data

How the results depend on the processing

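In 14 other fits the 4 tested genes gave 54 values, of which 0 passed the threshold and 49 kept their direction. The 5 reversals were *Il6ra* at 0.12 and *Il27* at 0.44 with *Gapdh* as the only reference, and *Osm* at -0.43 with *B2m* as the only reference, -0.41 with each Ct above 35 set to 35 and -0.26 without LacZ/AAV2/2 replicate 2. Leaving out each array in turn gave -1.94 to -0.47 for *Il6st*, -1.96 to -0.04 for *Il6ra*, -1.30 to -0.06 for *Il27* and -0.26 to 2.29 for *Osm*. With *Gapdh* or *B2m* alone every gene shifted by the same 1.11 or -1.44, which carried these values across zero. With each Ct above 35 set to 35, *Osm* stood 0.135 above the panel median of -0.55. Why the reference genes and the arrays differed was not tested. Where a group was left with 1 array, that array was assumed to vary like the other pair.

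The number of target genes called was 7 with *Gapdh* alone and 0 with *B2m* alone, where 26 had an unadjusted p-value under 0.05. It ran from 0 to 5 with an array left out, and was 0 without either E-sel/AAV2/2 array or without LacZ/AAV2/2 replicate 1, with 8, 7 and 15 genes at an unadjusted p-value under 0.05. Within an array, leaving out each array gave -0.27 to 0.68 for *Il6ra* against *Il6st*, with -0.27 and -0.02 reversed, 0.96 to 3.48 for *Osm* and -0.59 to 1.64 for *Il27*, with -0.59 and -0.11 reversed. It was 0.79 for *Osm* with each Ct above 35 set to 35.

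The labels give no batch behind the replicate numbers. The differences between repeat arrays of the groups correlated at r = 0.33 across the 77 genes, which are not independent. With the replicate block the log2 fold changes were unaltered at -1.20 for *Il6st*, -0.998 for *Il6ra*, 1.02 for *Osm* and -0.68 for *Il27*, none was called, and 5 genes of the panel were called in place of 4. Requiring a Ct under 35 on every array removed *Osm* and *Il27*.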
